A study of Mus musculus with 59 samples.

Results

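The protein arginine methyltransferases were followed in mouse embryoid bodies exposed to serum of mice carrying a mutant human SOD1 transgene, a model of amyotrophic lateral sclerosis, or to serum of their non-carrier littermates. The members are the 8 genes Prmt1, Prmt2, Prmt3, Prmt5, Prmt6, Prmt7, Prmt8 and Carm1, found by symbol among the 19613 genes of the array data. They were chosen on the carrier minus non-carrier difference, since a gene set for methylation of an arginine of histone H4 was lower with carrier serum in these same arrays, so their difference between the kinds of serum is described below without a test. Of the 59 exon arrays, 29 were of embryoid bodies given serum of males hemizygous for SOD1 and 30 of embryoid bodies given non-carrier serum, each for 24 h. The donors were F1 progeny of C57BL/6 and SJL, had no symptoms yet and are labelled 9 weeks, or 10 weeks for 3 arrays of each group. The indicator cells were derived from HBG3 HB9 embryonic stem cells, 1 line that carries a fluorescent reporter of the motor neuron gene HB9, by retinoic acid and a hedgehog agonist, and only part of the cells of an embryoid body became motor neurons. The donor mutation was thus never in the cells that were measured. As batches are not labelled, runs were read from the sample titles, by a common word or by blocks of numbers. This gave 9 runs of 4 to 11 arrays. The 10-week arrays are 1 run, called 10wk, so age and run cannot be told apart. The other runs are A to F, HB9MNs and motorneuron. Runs A to F are blocks of numbered titles, each with non-carrier numbers first and carrier numbers after. The numbers go on without a gap from A to B, C to D and E to F. Those borders rest on this order alone.

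Arginine methyltransferases move methyl groups from S-adenosylmethionine to arginine side chains of histones, RNA-binding proteins and other proteins. Type I enzymes, which include Prmt1, Prmt2, Prmt3, Carm1, Prmt6 and Prmt8, leave asymmetric dimethylarginine, the type II enzyme Prmt5 leaves symmetric dimethylarginine, and Prmt7 leaves monomethylarginine. On histone H4 the same arginine is asymmetrically methylated by Prmt1, a mark of active genes, and symmetrically by Prmt5, a mark of repressed genes. In motor neurons the family is known for its substrates, since many RNA-binding proteins carry methylated arginines.

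The 250 bases before the transcription start are shown for Prmt1, Prmt6 and Prmt8, the members whose mean was lowest with carrier serum relative to non-carrier serum. The sequences are those of RefSeq on build GRCm38.p6, in which 7 of the 8 members have an entry. All of the windows shown lie on the minus strand and are written 5′ to 3′ as the gene is read. Capitals mark the motifs that were searched on both strands, namely the CCAAT box, the E-box spelled CACGTG, the GC box spelled GGGCGG, the core of the cAMP element spelled TGACG, and the core of the amino acid response element bound by ATF4 and CHOP, spelled TGATGNAA.
Prmt1, chr7:44986421-44986670: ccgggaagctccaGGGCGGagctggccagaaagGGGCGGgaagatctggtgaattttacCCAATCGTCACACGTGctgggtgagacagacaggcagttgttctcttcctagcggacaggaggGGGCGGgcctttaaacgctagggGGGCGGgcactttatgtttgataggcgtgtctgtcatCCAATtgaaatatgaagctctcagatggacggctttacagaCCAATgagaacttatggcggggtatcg
Prmt6, chr3:110251000-110251249: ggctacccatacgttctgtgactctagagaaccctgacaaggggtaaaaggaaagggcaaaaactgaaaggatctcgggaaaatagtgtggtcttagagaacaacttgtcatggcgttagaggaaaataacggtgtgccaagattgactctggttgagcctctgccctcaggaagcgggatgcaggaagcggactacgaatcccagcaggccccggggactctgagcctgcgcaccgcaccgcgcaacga
Prmt8, chr6:127769156-127769405: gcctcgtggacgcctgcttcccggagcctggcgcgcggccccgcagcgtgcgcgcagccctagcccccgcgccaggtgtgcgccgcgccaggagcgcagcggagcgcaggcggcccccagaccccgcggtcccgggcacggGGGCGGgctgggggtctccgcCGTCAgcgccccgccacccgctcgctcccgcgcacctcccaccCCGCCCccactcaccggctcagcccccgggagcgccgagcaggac
The window of Prmt1 held 3 CCAAT boxes, 1 E-box, 4 GC boxes and 1 cAMP core, of which 1 CCAAT box, the cAMP core and the E-box follow each other without a gap. The window of Prmt8 held 2 GC boxes and 1 cAMP core, and that of Prmt6 held none of the motifs searched. Over 32851 windows of the same length, the CCAAT box was found in 33.8% and the GC box in 32.7%. The shares were 17.8% for the cAMP core, 6.02% for the E-box and 3.45% for the amino acid response core. The last was in none of the 7 members' windows.

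Prmt1, the enzyme that makes most of the asymmetric dimethylarginine of a cell, had log2 intensities from 9.38 to 10.00 with a median of 9.68 in the 29 carrier arrays. In the 30 non-carrier arrays the values ran from 9.48 to 9.99 with a median of 9.76. The kinds of serum overlapped over most of this range. With the run as a block, the difference of carrier minus non-carrier serum was -0.097 ± 0.028 (SE) on the log2 scale, which is -6.53% in intensity, where the SD of arrays of the same run and serum was 0.11. The mean was lower with carrier serum in 8 of 9 runs, whereas 5.45% of all genes were lower in at least 8. At least 1 run with all carrier arrays below was found for 56.9% of all genes. In run F the carrier arrays, at 9.52, 9.64 and 9.68, all lay below the non-carrier arrays, at 9.73, 9.73 and 9.86. The exception was run HB9MNs, in which carrier arrays were at 9.94 and 10.00 and non-carrier arrays at 9.91 and 9.99. In such bulk samples, fewer cells of a type and less RNA per cell cannot be told apart.

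Prmt8 is a close relative of Prmt1 that is found mainly in neurons and is held at the cell membrane by a lipid anchor. Its log2 intensity ran from 8.03 to 8.91 with a median of 8.62 with carrier serum, and from 8.18 to 8.88 with a median of 8.70 with non-carrier serum. The difference was -0.083 ± 0.025 (SE), or -5.61%, against an SD within run and serum of 0.084. The mean was lower in 8 of 9 runs. In 3 runs the carrier arrays all lay below the non-carrier arrays, which was so in at least 3 runs for 5.69% of all genes. In run A the carrier arrays were at 8.44, 8.48 and 8.52 and the non-carrier arrays at 8.69, 8.75 and 8.80. In run B the carrier arrays were at 8.03, 8.07 and 8.13, below the non-carrier arrays at 8.18, 8.22 and 8.34. In run D the values were 8.55, 8.62 and 8.67 with carrier serum, and the 4 non-carrier arrays lay between 8.69 and 8.76. Only in run C was the mean higher with carrier serum, by 0.059. The 3 runs without overlap are thus among those with low and with middle levels of the gene.

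Prmt6, a nuclear enzyme that methylates histone H3 and is known as a repressor, had the lowest difference of the family at -0.11 ± 0.037 (SE), or -7.37%. Its arrays ran from 7.28 to 8.27 with a median of 7.65 with carrier serum, and from 7.42 to 8.21 with a median of 7.78 with non-carrier serum. It also had the widest spread within run and serum of the 8 members, with an SD of 0.14. In run D the carrier arrays were at 7.36, 7.53 and 7.61 and the 4 non-carrier arrays between 7.74 and 7.87, without overlap, and the run's difference of -0.31 was its lowest. In run HB9MNs the carrier arrays, at 7.68 and 7.77, also lay below the non-carrier arrays, at 7.83 and 7.91. At least 2 such runs were found for 15.2% of all genes. The mean was lower in 8 of 9 runs, the exception being run A with 0.10.

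The remaining type I genes had smaller differences, of a size close to their SE. Prmt2, a weak methyltransferase and coactivator of nuclear receptors, was at -0.032 ± 0.024 (SE) and lower in 5 of 9 runs. Carm1, which methylates histone H3 as a coactivator with the p160 proteins, was at -0.034 ± 0.026 (SE) and lower in 7 of 9 runs. Of all genes 13.8% were lower in at least 7. No run separated the kinds of serum for Prmt2 or Carm1. Prmt3, which methylates the ribosomal protein Rps2, was the 1 member with a mean above that of non-carrier serum, at 0.020 ± 0.022 (SE), and was lower in 2 of 9 runs. Its highest array, 8.37 in carrier serum of run E, is the array least like its run, and the difference without it was 0.0073. In run HB9MNs the carrier arrays of Prmt3, at 7.90 and 7.92, lay below the non-carrier arrays, at 7.94 and 7.99. At least 1 such run was found for 56.9% of all genes.

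Prmt5 and Prmt7 are the members that do not make asymmetric dimethylarginine. Prmt5 was at -0.0058 ± 0.015 (SE), with the smallest spread of the family, an SD of 0.046. Its runs went opposite ways, since carrier arrays lay above all non-carrier arrays in runs A and HB9MNs and below them in run 10wk. In run HB9MNs the carrier arrays were at 10.85 and 10.91 and the non-carrier arrays at 10.75 and 10.79, while the means of run 10wk were 10.73 and 10.81. At least 2 runs with all carrier arrays above were found for 17.4% of all genes. Prmt7 was at -0.022 ± 0.033 (SE), was lower in 6 of 9 runs, and its differences within runs reached from -0.14 in run A to 0.14 in run HB9MNs. In run F its highest carrier array, at 8.30, lay below its lowest non-carrier array, at 8.31. At least 1 run with all carrier arrays below was found for 56.9% of all genes.

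**Figure D1:**
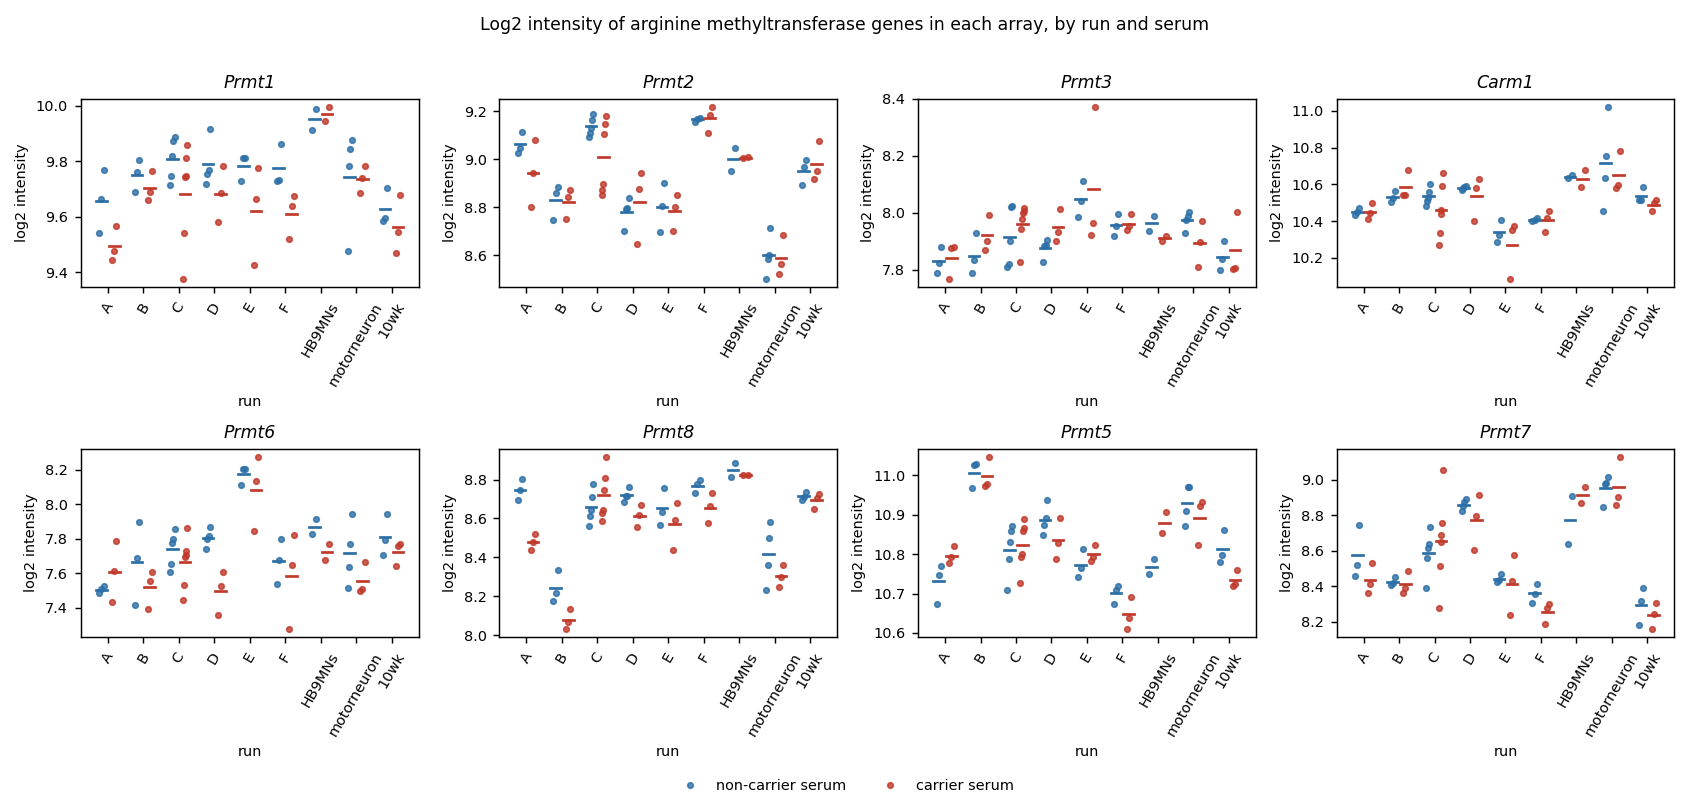
Log2 intensity of each of the 8 genes (vertical axis of each panel, with its own range) in every array, by run (horizontal axis), for non-carrier serum (blue) and carrier serum (red). Points are arrays and short lines are means, and the red line lies below the blue line in 8 of 9 runs for Prmt1, Prmt6 and Prmt8, while levels move more between runs than between kinds of serum.

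Side by side, 7 of the 8 members were below 0 and their median difference was -0.033. Of all genes 38.9% were below 0, with a median difference of 0.016 and a median size of 0.039. With dim genes left out, the median difference of all remaining genes was -0.0096. Since the difference chose the members, nothing further is read from these counts. The size of the difference was at the 92.5th percentile of all genes for Prmt6, the 89.0th for Prmt1 and the 83.5th for Prmt8, and between the 7.89th and the 44.3rd for the other members. The differences of Prmt1, Prmt6 and Prmt8 were below 1 SD of arrays of the same run and serum, at -0.87, -0.77 and -0.99 SD. An array-wide component, the first principal component of all genes within run and serum, held 20.4% of the variance within runs. Its score, oriented so that the carrier mean is the higher one, averaged 2.73 ± 9.27 (SD, n = 29) in carrier arrays against -2.64 ± 10.1 (SD, n = 30) in the others, higher with carrier serum in 7 of 9 runs. Within run and serum, its Pearson's r over the 59 arrays was -0.57 with Prmt8, -0.26 with Prmt1 and -0.25 with Prmt6, where the median size over all genes was 0.38. With this component as a covariate, chosen after seeing the data, the differences were -0.081 for Prmt1, -0.094 for Prmt6 and -0.059 for Prmt8.

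**Figure D2:**
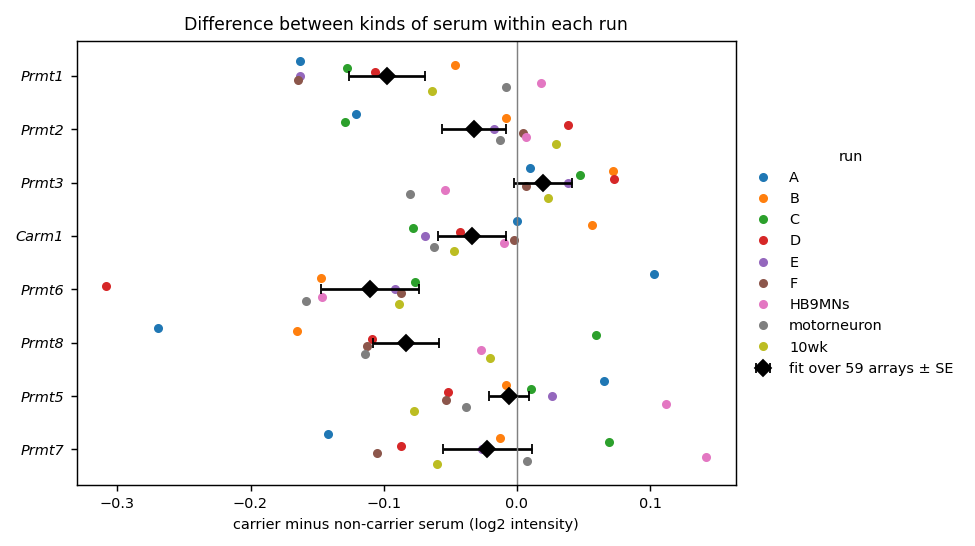
Carrier minus non-carrier serum in log2 intensity (horizontal axis) for each gene (vertical axis), as the difference of means in each of 9 runs (coloured points) and as fitted over 59 arrays with the run as a block (black diamonds, bars are SE). The fitted values of Prmt1, Prmt6 and Prmt8 lie between -0.11 and -0.083 with 8 runs below 0 each, and those of the other members between -0.034 and 0.020.

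Whether the difference itself changed from run to run could be tested, as the mean difference does not fix it. In limma's moderated F test of serum by run, 0 of 8 members passed an adjusted p of 0.05, over 19613 genes of which 0.127% passed, with adjusted p-values from 0.625 to 0.993. Prmt8 alone had an unadjusted p under 0.05, at 0.0476, as did 7.94% of all genes, and its adjusted p was 0.625. This does not show that the runs had equal differences.

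The levels of all members differed between runs. In limma's moderated F test of the runs beside serum, 8 of 8 members passed, but so did 94.0% of all genes. Of the variance left after serum, the run held 82.9% for Prmt8 (adjusted p = 1.19e-15), 81.0% for Prmt2, 78.9% for Prmt7 and 77.8% for Prmt5. It held 58.7% for Carm1 and for Prmt6, 44.5% for Prmt1 (adjusted p = 1.97e-04) and 39.7% for Prmt3 (adjusted p = 0.00161), and the median over all genes was 63.7%. Without run E the effect on Prmt6 had an adjusted p of 0.0967, while the other members still passed with any run left out.

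The order of the runs differed between genes. Prmt8 was lowest in run B, at 8.16, and in run motorneuron, at 8.37, and the arrays of these runs overlapped each other. All arrays of run B were below those of every other run but motorneuron. Runs E, A, D, C, 10wk and F followed with means from 8.61 to 8.71 and overlapping arrays, and HB9MNs was highest at 8.84. Prmt2, in contrast, was lowest in run motorneuron at 8.60 and highest in run F at 9.17, and its highest array in the former, at 8.72, was below its lowest array in the latter, at 9.11. Prmt7 was lowest in run 10wk at 8.27 and highest in run motorneuron at 8.96. Prmt5 was highest in run B, where Prmt8 was lowest, with arrays from 10.97 to 11.05, and lowest in run F at 10.67.

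For Prmt6, run E stood apart from its neighbour in the order, with a mean of 8.13 against 7.80 in run HB9MNs, although its lowest array, at 7.85, lay within the range of HB9MNs. Prmt1 was highest in run HB9MNs at 9.96, whose lowest array, at 9.91, was above the arrays of all runs but D, in which 1 array reached 9.92. The other 8 runs had means of Prmt1 from 9.58 to 9.74, and their ranges overlapped. Carm1 ran from 10.30 in run E to 10.69 in run motorneuron. Prmt3 had the narrowest range of run means, from 7.84 in run A to 8.07 in run E.

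The relation of levels was then examined across arrays of the same run and serum, which the choice of members did not use. Of the 28 pairs of members, 1 passed an adjusted p of 0.05 in a permutation test with 100000 resamples within run and serum. After median centring of the arrays 7 passed, this pair among them. Prmt1 and Prmt7, makers of asymmetric dimethylarginine and of monomethylarginine, rose and fell together (Pearson's r = 0.64, permutation p = 9.0e-05, adjusted p = 0.00252, n = 59). Spearman's rho was 0.61 (permutation p = 1.1e-04), and r was 0.55 without the 2 arrays farthest from the median of Prmt1. In the 8 runs of 6 or more arrays r ran from -0.14 to 0.97 and was positive in 7. With the array-wide component removed it was 0.66. Of all genes 0.928% had an r of larger size, positive or negative, with Prmt1 than Prmt7 had. The next pair, Prmt1 and Prmt2, had an r of 0.45 (permutation adjusted p = 0.164). Prmt1 and its close relative Prmt8 had an r of 0.04, and Prmt6 and Prmt8 an r of 0.24, neither past the test.

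Each member was also set against the mean of 4 gene lists, giving 32 relations, of which 1 passed, and 7 after median centring. Prmt2 rose with the markers of motor neurons (Pearson's r = 0.57, permutation p = 9.0e-05, adjusted p = 0.00288, n = 59). Spearman's rho was 0.59 (permutation p = 8.0e-05), r was 0.56 without the 2 farthest arrays, and within runs it reached from -0.31 to 0.79 with 7 of 8 positive. Without run C, which holds more than 1 batch, r was 0.46 and the adjusted p 0.0819, so that the call depends on its 11 arrays. The call held in the 14 other alternatives, among them the one with run C split into 2 blocks. Carm1 had an r of 0.49 with markers of progenitors (permutation adjusted p = 0.245), which was 0.24 without the 2 farthest arrays. Prmt1, Prmt6 and Prmt8 had r of -0.01, 0.30 and 0.05 with the genes of the ATF4 and CHOP response, and none of these passed.

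**Figure D3:**
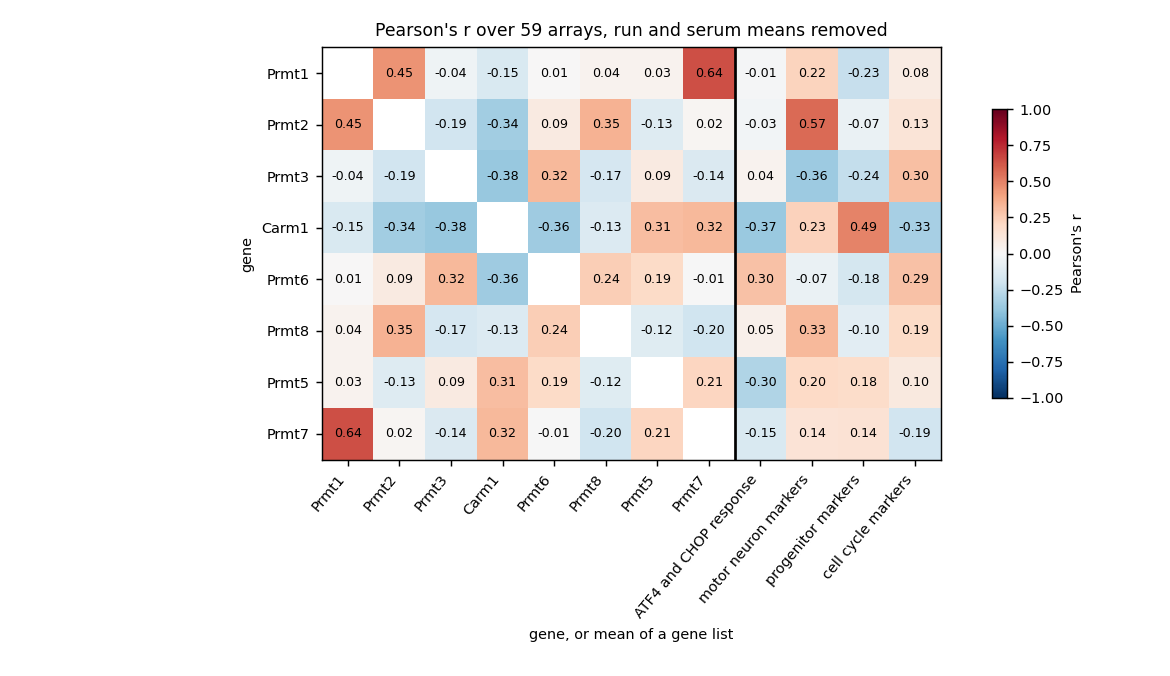
Pearson's r over 59 arrays after removal of the mean of each run and serum, for each gene (rows) with the other members (columns left of the black line) and with the mean of 4 gene lists (columns right of it). Red is positive and blue negative on a scale from -1 to 1, and the pairs past an adjusted p of 0.05 are Prmt1 with Prmt7 at 0.64 and Prmt2 with the motor neuron markers at 0.57.

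The cells were checked against their markers. Of 8 motor neuron markers 7 had a value, and each was above the array's median in all arrays, as were 7 of 8 progenitor markers. No marker of pluripotent cells, of mesoderm and endoderm or of blood cells was above the median in all arrays, and none of these lists held a gene past the test between kinds of serum. All 6 markers of mesoderm and endoderm were above 0, with a median of 0.077, and 3 of them had an unadjusted p under 0.05. All 4 blood cell markers with a value were above 0 too, with a median of 0.038. Of the motor neuron markers, Slc5a7, the choline transporter, rose by 0.15 ± 0.042 (SE, limma adjusted p = 0.0410), as the 1 gene of its list that passed. Of the 7 measured markers 3 were below 0, namely Lhx3 at -0.086 (adjusted p = 0.105), Mnx1 at -0.035 and Chat at -0.023. The 4 above 0 were Slc5a7, Isl2 at 0.094 (limma adjusted p = 0.195), Isl1 at 0.053 (limma adjusted p = 0.114) and Prph at 0.026. At an unadjusted p under 0.05 there were 3 higher and 1 lower. The list mean ran from 9.09 to 9.55 with carrier serum and from 9.06 to 9.50 with non-carrier serum. Their part in the members' differences was not tested beyond the relations above. The 10 genes of the ATF4 and CHOP response, which include Atf4 and Ddit3 (CHOP) themselves, all fell, with a median of -0.25, but this list was chosen with its result known.

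The difference between kinds of serum was tested on the genes around the family, in 6 lists of which 51 of 52 genes had a value. Of these 36 were below 0 and 15 above, with a median of -0.023, where 38.9% of all genes were below 0 with a median of 0.016. All genes include dim ones, while 46 of the 51 were above the array's median in all arrays. With dim genes left out, the median of all remaining genes was below 0 too, at -0.0096. Whether the lists lie lower than those genes was not tested. Of the 51, 2 fell and 0 rose at a limma adjusted p of 0.05. Of all genes 1.65% were called lower and 0.683% higher, 2.33% together. At an unadjusted p under 0.05 there were 9 lower and 3 higher.

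Among partners of the enzymes, 10 of 11 were below 0, and Btg1 fell. Btg1, an antiproliferative protein that binds Prmt1 and promotes its activity, was at 9.89 ± 0.18 (SD, n = 29) in carrier arrays, against 9.99 ± 0.15 (SD, n = 30) in the others. The difference was -0.10 ± 0.029 (SE, limma adjusted p = 0.0437), lower in 7 of 9 runs, where 13.8% of all genes were lower in at least 7. The call was lost in 7 of 9 fits with 1 run left out, those without 10wk, A, B, D, E, F or HB9MNs, with adjusted p-values from 0.0556 to 0.162 and differences from -0.11 to -0.080, and also without a block (adjusted p = 0.995). Its relative Btg2, which also binds Prmt1, was at -0.088 and lower in 8 of 9 runs but did not pass (adjusted p = 0.177). Partners of Prmt5 did not pass either, with -0.036 for Wdr77, the subunit that Prmt5 needs for activity, and -0.060 for Clns1a, which brings it Sm proteins. The coactivators that recruit Carm1, Ncoa1, Ncoa2 and Ncoa3, were between -0.038 and -0.026.

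In the cycle that supplies the methyl donor, 7 of 10 genes were below 0, and Mat2a, which makes S-adenosylmethionine, was at 0.058 and lower in 1 of 9 runs, without passing (adjusted p = 0.151). Ahcy, which removes the product of methylation, was at -0.049. The calls among related genes depend on single runs, and with run 10wk, B, D or F left out 0 related genes were called lower.

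None of the readers or substrates of the enzymes passed. All 4 readers of methylarginine were below 0, among them Smn1, the gene of spinal muscular atrophy, at -0.057 (adjusted p = 0.210). Of 5 Sm proteins and related substrates 4 were below 0, and Snrpb, a core protein of the spliceosome, was lowest at -0.11 (adjusted p = 0.105). Of 19 RNA-binding substrates 10 were below 0 and 9 above, and they lay between -0.037 and 0.053. Ewsr1 was at -0.029 ± 0.021 (SE) and Taf15 at -0.034 ± 0.029 (SE). Ddah1 and Ddah2, which break down free asymmetric dimethylarginine, were at 0.043 and -0.014. The other genes named for arginine methyltransferases did not pass, with -0.046 for Prmt9, listed as Prmt10 (adjusted p = 0.290), -0.015 for Fbxo11 and 0.013 for Ndufaf7.

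**Figure D4:**
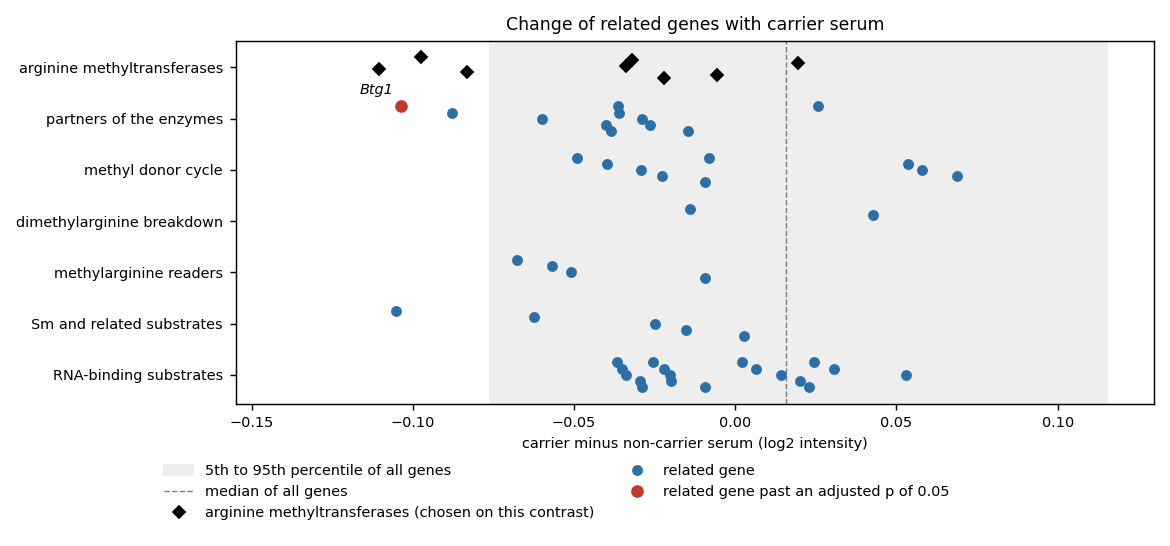
Carrier minus non-carrier serum in log2 intensity (horizontal axis) for the 8 members (black diamonds) and 49 related genes (points) by list (vertical axis). The grey band spans the 5th to the 95th percentile of all 19613 genes and the dashed line is their median, and the red point past an adjusted p of 0.05, Btg1 at -0.10, lies left of the band.

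Over the 59 arrays, within run and serum, the genes most like each member were found by Pearson's r, as a description. Prmt1 was closest to Tmem199 at 0.80, the proteasome subunit gene Psma7 at 0.80 and the ATP synthase gene Atp5o at 0.80. Prmt7 was closest to Eif3d at 0.82, a translation initiation factor, the ribosomal protein gene Rps16 at 0.82 and Otub1 at 0.81. Carm1 had the closest of all, with D430041D05Rik at 0.91, Plekhg2 at 0.91 and the kinase Hipk2 at 0.91. Prmt2 was closest to Cndp2 at 0.80, Hsd17b10 at 0.80 and Rpn2 at 0.76, and Prmt8 to Mycl1 at 0.75, Fbxl21 at 0.71 and Stradb at 0.71. For Prmt3 they were Cwc22 at 0.74, Cnot6 at 0.73 and Dnajc13 at 0.73. Prmt6 and Prmt5 had looser neighbours, with Agk at 0.62, Trdmt1 at 0.61 and Cbr4 at 0.60 for Prmt6, and X1300010F03Rik at 0.68, Mrpl37 at 0.67 and Nckap5 at 0.65 for Prmt5. These values share the arrays and their overall quality.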

How the data were processed

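Total RNA of 59 samples was measured on Affymetrix mouse exon arrays. The deposited values are linear intensities per gene, which the authors made with RMA in aroma.affymetrix as the mean of all exons of a gene (the labels also name Affymetrix Expression Console), normalizing training and test arrays together after removal of outlier arrays by Grubbs' test. Whether exons were averaged on a log scale and which genome build underlies the annotation are not given in the sources used here. The median intensity of an array was 151 to 183, the mean r of an array with its run 0.979 to 0.996, and the number of arrays limits the precision. Per the methods, serum samples were assayed in small groups, each on its own batch of differentiated cells, so arrays of a batch share a differentiation.

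Log2 intensities (pseudocount 0, no filter) of 19613 genes were fitted with limma 3.58.1 in R 4.3.3, with serum and run as terms. Tests were two-sided, and p-values adjusted by Benjamini-Hochberg across the whole table counted as past the test under 0.05. Runs were taken from the titles. Run C, with 11 arrays, holds more than 1 batch. Correlations used values less their run and serum mean, with 100000 permutations within run and serum (smallest possible p 1e-05) and adjustment over the 28 or 32 relations, in numpy 2.4.6 and scipy 1.17.1. The fits were tested on simulated data. The members, related lists and marker lists were chosen with earlier results of these data known. Named genes were the members, related genes past the threshold, the motor neuron genes of the methods and the 3 genes nearest each member, and the other genes named were chosen after their values were seen. The values of 2 related genes, 1 of them past the threshold, are not reported here. Alternatives changed the block, normalization, filter, pseudocount, variance model and covariates, and left out each run or array.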

Additional observations from a re-analysis of the deposited data

How the results depend on the processing

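The signs of the differences of Prmt1, Prmt2, Prmt6, Prmt7 and Prmt8 held in all 76 alternatives run for each, with ranges of -0.11 to -0.081 for Prmt1, -0.13 to -0.084 for Prmt6 and -0.13 to -0.059 for Prmt8. Most of these alternatives left out a single array, which changes little. The differences of Prmt2 and Prmt7 were of a size close to their SE, at -0.032 ± 0.024 (SE) and -0.022 ± 0.033 (SE). With Olig2, Mnx1, Isl1 and Lhx3, the motor neuron genes of the methods, as covariates, Prmt3 turned to -0.024 and Carm1 to 0.020, and the sign of Prmt5 held in 72 of 76. The number of related genes called lower, 2 with the run as a block, was 0 without a block, 20 with the 4 motor neuron genes as covariates, where 6126 genes were called in all against 457, and 1 with the array-wide component as a covariate, chosen after seeing the data. With each run left out in turn it was 0 to 3, being 0 without 10wk, B, D or F, and related genes called higher were 0 to 1, the 1 being without C. Btg1 lost its call in 7 of the 9, with adjusted p-values from 0.0556 to 0.162, and its difference ran from -0.14 to -0.080 over the 9. With the title number of 8 pairs in runs motorneuron, HB9MNs and 10wk as a replicate block, 2 related genes were again called lower, and 513 genes were called in all. Deviations of same-numbered arrays had r from -0.13 to 0.33, over 0.1 in 1 of 8 pairs. The 2 pairs of run HB9MNs gave the same r, 0.063, so the 8 pairs are not independent checks. Whether a shared number marks a true pairing cannot be decided from these values. After median centring of the arrays, 7 relations between members and 7 with gene lists passed, 1 shared with the reported analysis in each case. Without run C, 0 relations with gene lists passed, and the range with each run left out was 0 to 1. The number of members past the test of runs was 7 or 8 in the alternatives run, and 0 passed for serum by run. The cause of these changes was not tested.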

Other observations

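Across the means of the 9 runs, chosen after seeing the data, 0 of the 28 relations between members and 0 of the 32 with gene lists passed in exact permutation tests, with smallest adjusted p-values of 0.290 and 0.791.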
